A study of Mus musculus with 4 samples.

Results

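Rewired links are chromatin contacts whose anchors both occur in the contact lists of 2 classes of cortical interneuron, somatostatin (SST) cells and cells making vasoactive intestinal peptide (VIP), but which are themselves listed for only one of these classes. The members were chosen by the listed anchor positions: each end of the interaction had to overlap an anchor of the other list by 1 bp or more, while no single interaction of the other list joined the overlapping anchors. The rule gave 1261 members among 15011 interactions. There were 674 in the SST list, 8.14% of its 8278 interactions, and 587 in the VIP list, 8.72% of its 6733. These counts follow from the rule and are descriptions. "Rewired" names the rule here, not an observed change in any cell.

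SST and VIP interneurons are inhibitory neurons of the cortex. SST cells mainly contact the dendrites of excitatory neurons, and VIP cells mainly inhibit other interneurons. Acetylation of histone H3 at lysine 27 (H3K27ac) marks active promoters and enhancers. HiChIP joins DNA ends that lie close together in the nucleus and enriches joined fragments on which the mark is present, at one end or at both. A listed interaction links a pair of regions, its anchors, and the lists hold no acetylation value for either. An enhancer can contact several promoters and a promoter several enhancers, so that links form networks in which some anchors, called hubs, take part in many. A rewired link is listed in one such network and not in the other, between anchors that overlap in both lists.

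The nuclei came from the cortex of adult C57BL/6 mice of the genotypes Sst-cre; Sun1 and Vip-cre; Sun1. Cre made in SST or VIP cells switches on a tagged Sun1 protein of the nuclear envelope, by which their nuclei are captured. The identity of the nuclei therefore rests on the Cre driver. Labels describe 2 samples per cell type, and 1 list per cell type, attached to replicate 1, was analysed here. It is not known here whether a list combines the replicates. Without replicate lists no difference could be tested against a spread between animals. Parentheses after a percentage hold an exact 95% binomial interval, and after a median a 95% interval from its order statistics. Both are for counting error alone, and they take links as independent, although links share anchors. Read depth is unknown, so an unlisted link may still exist in the cells. Coordinates are mm9 as deposited, and anchors were not assigned to genes here, so neither the genes at the anchors nor marker genes of the cell types are given.

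The members were of 2 kinds, which differed in distance. In 113 SST members, 16.8% (14.0 to 19.8%), both ends overlapped one and the same VIP anchor, and in 74 VIP members, 12.6%, both ends overlapped one SST anchor. Such a pair of neighbouring anchors meets a single anchor of the other list. These anchors of the other list had a median width of 38.0 kb (VIP anchors) and 39.3 kb (SST anchors), while the member anchors they covered were 13.7 kb and 15.3 kb wide. The members concerned were short, with median distances of 18.7 kb (SST) and 19.0 kb (VIP). They made up 54.1% of the SST members and 49.3% of the VIP members of up to 50 kb. Among shared links, which had a listed counterpart, the same situation was found for 2.14% in SST and 2.18% in VIP. Such a link can be shared only if a further anchor of the other list overlaps one of its ends, so the rule itself keeps this percentage low. The ends of the remaining 561 SST and 513 VIP members met separate anchors, which made up 24.4% and 23.2% of all links with separate anchors in the other list.

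Members with separate anchors had longer median distances than shared links, and in VIP the size of this difference depended on how anchors were divided. Their median distance, measured between anchor midpoints, was 216 kb (181 to 267 kb) in SST and 252 kb (206 to 273 kb) in VIP. Shared links with separate anchors had medians of 128 kb (113 to 141 kb) and 124 kb (112 to 138 kb). The medians differed by 88.3 kb for SST and by 128 kb for VIP, and the intervals did not overlap. The difference had this sign on 14 of 19 autosomes in SST and on 15 of 19 in VIP. When anchors within 5 kb were merged, it was 95.2 kb in SST but 44.5 kb in VIP, where the range between the ends of the intervals, -17.7 to 106 kb, took in 0. With anchors within 10 kb taken as the same it was 84.9 kb for SST and 55.4 kb for VIP (lower end 0.22 kb), and for links of up to 200 kb it was 19.9 kb and 18.7 kb. Over all members, those with both ends in 1 anchor included, the medians were 139 kb (122 to 173 kb) in SST and 184 kb (157 to 227 kb) in VIP. The excess over shared links was then only 19.4 kb in SST, with overlapping intervals and 9 of 19 autosomes in this direction, and 66.1 kb in VIP. It became 2.50 kb in SST and -4.25 kb in VIP when anchors within 5 kb were merged, and -9.35 kb in SST and 1.15 kb in VIP when links of up to 200 kb were kept. Without the 10 windows richest in members it was 4.23 kb in SST and 47.5 kb (-6.82 to 100.1 kb) in VIP. Links with just 1 anchor in the other list had medians of 245 kb (SST) and 241 kb (VIP), within the intervals of the separate-anchor members.

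**Figure D1:**
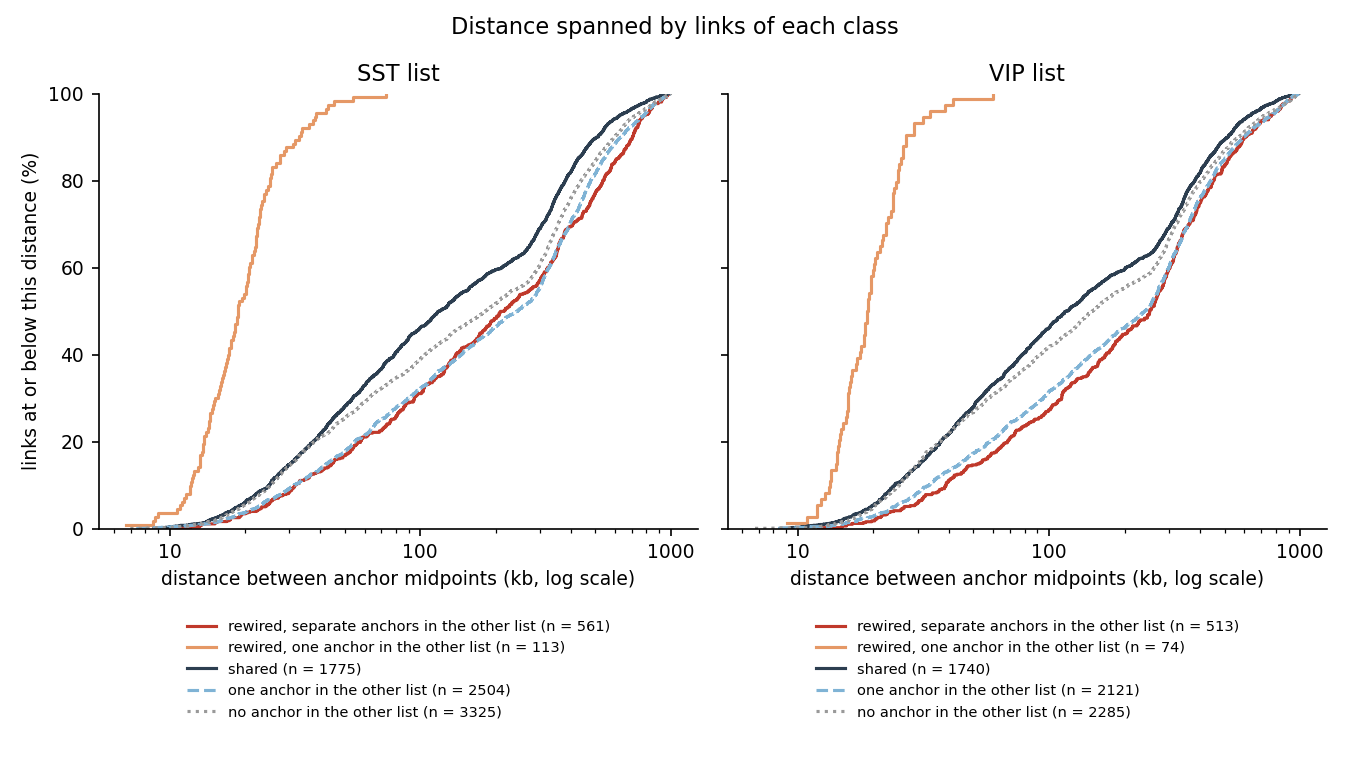
Percentage of links (vertical axis) at or below a given distance between anchor midpoints (horizontal axis, kb, log scale), for each class of link in the SST list (left) and the VIP list (right). Rewired links with separate anchors in the other list lie to the right of shared links, with medians of 216 against 128 kb in SST and 252 against 124 kb in VIP, and those meeting one anchor of the other list with both ends lie at far shorter distances, with medians of 18.7 and 19.0 kb.

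The share of rewired links among links with separate anchors in the other list was lowest up to 50 kb and highest above 600 kb. In SST it was 16.9% (13.9 to 20.3%) of 556 links up to 50 kb, 20.1% at 50 to 100 kb, 29.0% at 100 to 200 kb, 22.9% at 200 to 400 kb and 27.8% at 400 to 600 kb. Above 600 kb, 88 of 191 SST links were rewired, 46.1% (38.9 to 53.4%). In VIP it was 14.3% (11.4 to 17.6%) of 525 links up to 50 kb, between 26.4% and 28.7% in the classes from 100 to 600 kb, and 33.8% (26.4 to 41.8%) of 154 links above 600 kb. The lowest and the highest class had separate intervals in each list. The low share up to 50 kb is for separate anchors alone. It leaves out 111 of 205 SST and 73 of 148 VIP members of that class, which met one anchor of the other list. With all links counted, the class held 205 rewired and 499 shared links in SST, and 148 and 486 in VIP. The longest SST member joined chromosome 10, 108119876 to 108178661, to 109136058 to 109138949 over 988 kb, and the longest VIP member joined chromosome 2, 157570819 to 157611816, to 158530682 to 158578613 over 963 kb. The shortest members were 6.69 kb long in SST (chromosome 8, 73274559 to 73281512 and 73282294 to 73287150) and 9.09 kb in VIP (chromosome 19, 5092305 to 5101819 and 5103048 to 5109251), and each of them met one anchor of the other list with both ends.

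Member anchors met their counterparts less completely than anchors of shared links. For each link with separate anchors, the end with the smaller overlap was covered by a single anchor of the other list over a median of 51.9% (49.7 to 54.4%) of its length in SST members and 42.0% (41.0 to 45.7%) in VIP members. For shared links the medians were 81.6% (80.1 to 83.3%) and 74.4% (72.3 to 76.7%). The rule itself uses overlap, so these values describe the members and test nothing. The widths of member anchors and of anchors of shared links in the own list were closer, at 18.6 kb against 16.8 kb in SST and 19.7 kb against 17.7 kb in VIP. The smallest overlap in the SST members was 259 bp, in a pair of links sharing the chromosome 6 anchor 135727255 to 135761251, and the smallest in VIP was 2250 bp, on chromosome 15 between 58890324 and 58916016. Just outside the rule, an SST link on chromosome 8 (12380569 to 12408967 and 12436353 to 12441654) and a VIP link on chromosome 2 (138080298 to 138097984 and 138100674 to 138109613) each overlapped the other list with one anchor and touched an anchor of it, with a gap of 0 bp, with the other.

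Some members missed a listed counterpart by little. For every member with separate anchors, links of the other list that met one end were taken, and the gap from their far anchor to the member's other end was measured. The smallest such gap had a median of 38.6 kb (28.4 to 48.5 kb) in SST and 35.8 kb (29.0 to 44.6 kb) in VIP. It was at most 10 kb for 26.2% (22.6 to 30.1%) of SST and 25.1% (21.4 to 29.1%) of VIP members, and at most 100 kb for 68.3% and 69.8%. In 1 SST and 3 VIP members the gap was 0, meaning that the anchors touched.

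Most members stood in the other list as an indirect connection. The ends of 453 SST members, 80.7% (77.2 to 83.9%) of those with separate anchors, were joined in VIP by 2 links over an intermediate anchor. From the VIP side this held for 410 members, 79.9% (76.2 to 83.3%). Paths of 3 or 4 links joined a further 28 SST and 39 VIP members. No path existed for 80 SST members, 11.9% (9.52 to 14.6%) of all SST members, and for 64 VIP members, 10.9% (8.50 to 13.7%). Unjoined members were long, with a median of 371 kb (305 to 484 kb) for SST and 345 kb (294 to 426 kb) for VIP, against 171 kb and 199 kb for members joined by 2 links. Members that needed 3 or 4 links had medians of 540 kb (351 to 603 kb) and 304 kb (256 to 396 kb).

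**Figure D2:**
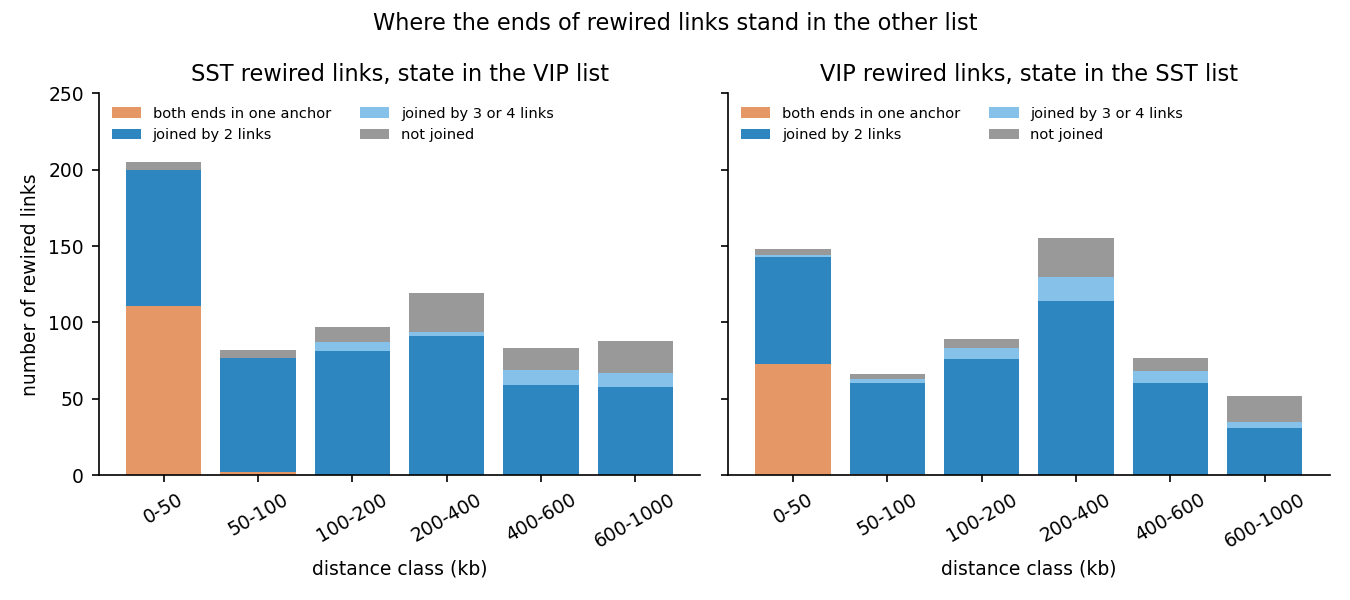
Number of rewired links (vertical axis) by distance class in kb (horizontal axis), split by how their ends stand in the other list, for SST links looked up in VIP (left) and VIP links looked up in SST (right). Members with both ends in one anchor are almost all in the class up to 50 kb (111 of 113 in SST, 73 of 74 in VIP), and joining by 2 links is the most frequent state in every other class.

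An indirect connection was common among anchors that both lists hold, whether or not they were linked. Shared links, with the direct link set aside, were also joined by 2 links in 65.3% (63.0 to 67.5%) of cases in SST and 69.0% (66.8 to 71.2%) in VIP. Pairs of common anchors within 1000 kb that were linked in neither list were joined by 2 links of the other list in 53.6% of 4714 pairs from the SST side and 56.8% of 4404 pairs from the VIP side. For members and for unlinked pairs the percentage was highest up to 50 kb and lowest above 600 kb, and the order of the 3 kinds of pair changed with distance. Up to 50 kb, SST members stood at 94.7% (88.0 to 98.3%) and unlinked pairs at 97.3% (94.2 to 99.0%), with overlapping intervals, while shared links stood at 59.7% (55.1 to 64.2%). Above 600 kb, SST members stood at 65.9% (55.0 to 75.7%) and shared links at 65.0% (55.0 to 74.2%), whereas unlinked pairs stood at 27.3% (25.2 to 29.5%). VIP members likewise had 93.3% up to 50 kb against 96.7% of unlinked pairs, and 59.6% (45.1 to 73.0%) above 600 kb against 30.6% (28.3 to 32.9%). Above 600 kb, members of both lists were thus joined over an intermediate anchor more often than unlinked pairs, and the intervals did not overlap. An anchor enters a list only through a link, which bears on each of these percentages.

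**Figure D3:**
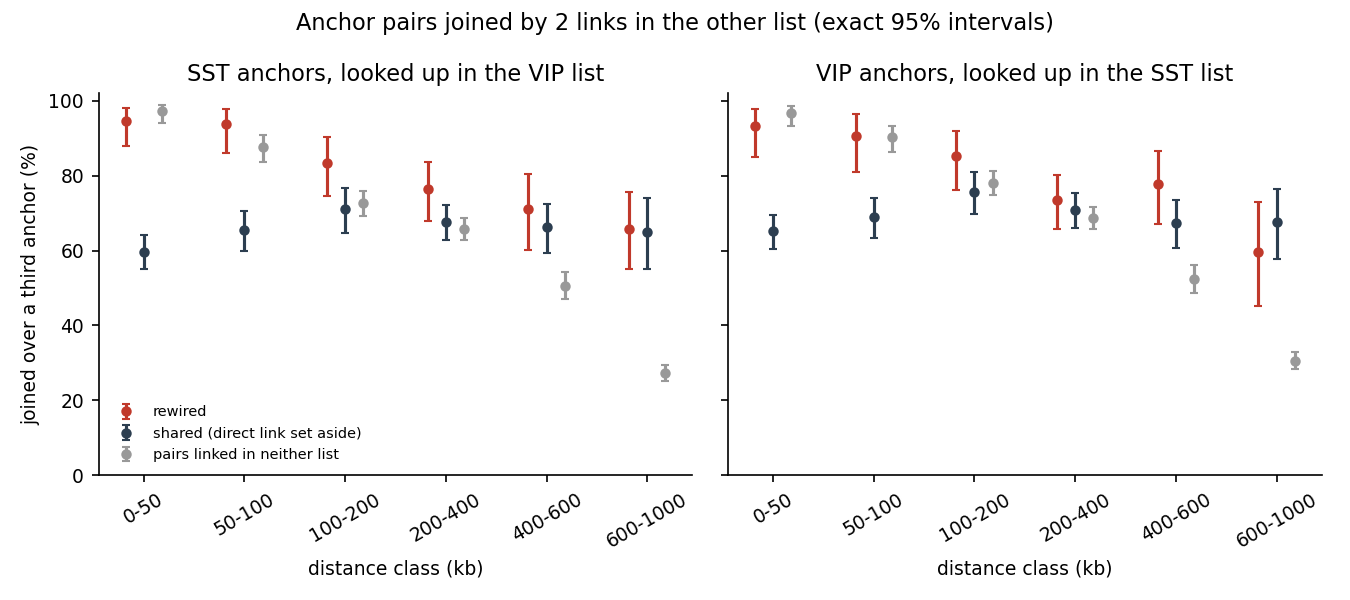
Percentage of anchor pairs joined over an intermediate anchor in the other list (vertical axis) by distance class in kb (horizontal axis), for rewired links, shared links with the direct link set aside and pairs of common anchors linked in neither list. Bars are exact 95% intervals. Rewired links lie with unlinked pairs up to 50 kb (94.7% and 97.3% in SST) and with shared links above 600 kb (65.9% and 65.0% in SST).

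The intermediate anchor lay outside the stretch between the ends more often than inside it. Among members joined by 2 links, it lay only outside in 54.3% (49.6 to 59.0%) of SST and 62.0% (57.1 to 66.7%) of VIP members, and only between the ends in 32.0% and 29.3%. Shared links had 48.9% and 48.6% outside only and 16.8% and 17.4% between only, the rest having intermediate anchors of both kinds. The busiest intermediate anchor had a median of 9 links in VIP for SST members and 11 links in SST for VIP members. It was a hub, meaning that it had 10 or more links there, in 46.1% (41.5 to 50.9%) and 52.9% (48.0 to 57.8%), against 40.8% and 41.1% for shared links. The own list held a closed triangle, in which the same intermediate anchor was linked to both ends, for 297 SST members and 262 VIP members, 52.9% and 51.1% of those with separate anchors. For these members the other list held the same triangle without the direct side. Shared links with separate anchors had such a triangle in 43.5% and 44.5%. Among links joined by 2 links the proportions were similar. They were 297 of 453 SST and 262 of 410 VIP members, against 755 of 1134 and 758 of 1175 shared links. For 15.7% (12.4 to 19.4%) of SST and 15.6% (12.2 to 19.5%) of VIP members joined by 2 links, no intermediate anchor overlapped any anchor of the own list. For shared links this held in 7.67% and 9.28%.

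In their own list, member anchors had about as many links as anchors of shared links, and in the other list they had fewer. At the busier end, SST members with separate anchors had a median of 8 links in SST and 3 links in VIP, and at the less busy end they had 3 and 1. VIP members had 8 links in VIP and 4 in SST at the busier end, and 3 and 1 at the less busy end. Shared links were nearly balanced, with a median of 7 in the own list and 8 in the other at the busier end in both cell types. Both ends had more links in the own list in 65.4% (61.3 to 69.4%) of SST members and 55.0% (50.5 to 59.3%) of VIP members, against 19.9% and 12.2% of shared links. Both ends had more links in the other list in 1.60% and 3.31% of members, against 19.5% and 29.8% of shared links. At least 1 end had a single link in the other list for 62.4% of SST and 58.3% of VIP members, against 30.4% and 26.3% of shared links. A member contributes a link to its own list and none to the other, so part of this imbalance is set by the rule.

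**Figure D4:**
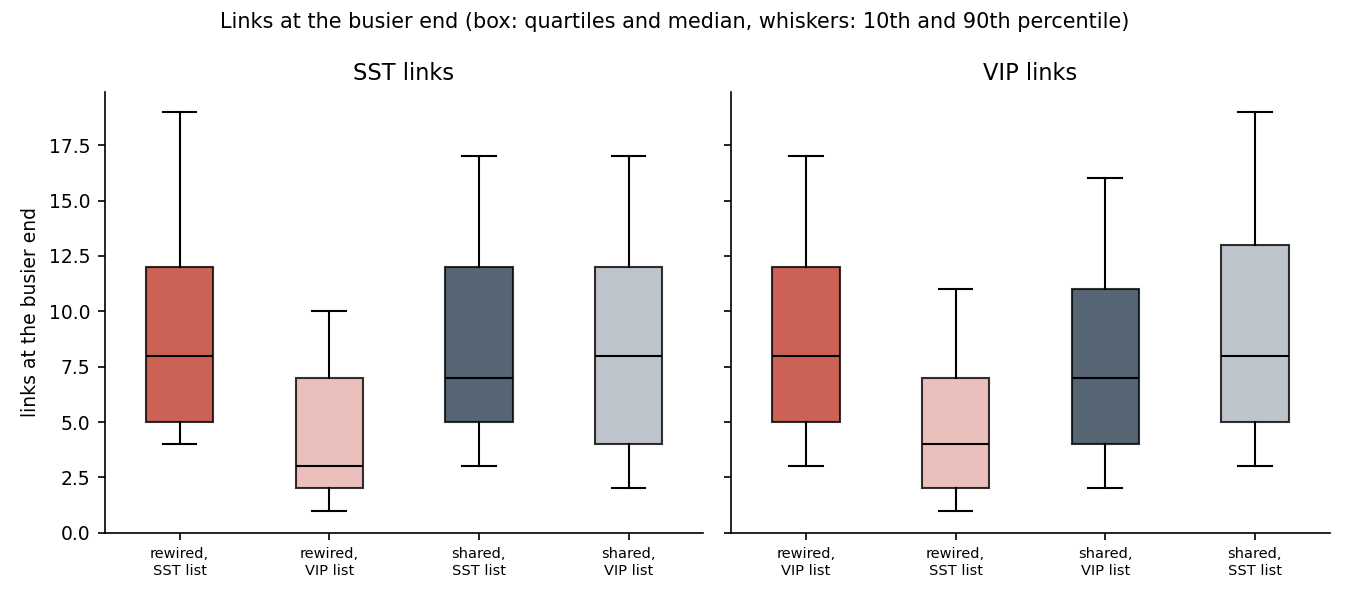
Number of links at the busier end of a link (vertical axis) in the own and in the other list, for rewired and shared links with separate anchors, with boxes for quartiles and median and whiskers to the 10th and 90th percentile. Rewired SST links have medians of 8 in SST and 3 in VIP and rewired VIP links 8 in VIP and 4 in SST, while shared links have 7 and 8 in both panels.

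Taken all together, members touched hubs less often than links with 1 anchor in the other list, while the intervals of members and of the other classes overlapped. In SST, 37.2% (33.6 to 41.0%) of members had a hub at one end or both, against 35.6% of shared links, 43.4% (41.5 to 45.4%) of links with 1 anchor in VIP and 37.2% of links with none. In VIP, 36.1% (32.2 to 40.1%) of members did, against 32.4%, 44.6% (42.5 to 46.8%) and 33.7%. No listed anchor of the own list lay between the ends of 31.2% of SST and 27.3% of VIP members, and 5 or more lay between the ends of 32.8% (29.3 to 36.5%) and 33.2% (29.4 to 37.2%). Shared links skipped 5 or more anchors in 23.0% and 21.4% (19.5 to 23.4%). Links with 1 anchor in the other list did so about as often as members, in 33.2% in SST and 33.0% in VIP. For links with none it was 28.1% and 21.8%.

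Rewired links mostly sat next to shared ones, and so did links with a single anchor in the other list. An anchor that also carried a shared link was found at both ends of 67.1% (63.4 to 70.6%) of SST and 66.8% (62.8 to 70.6%) of VIP members, at one end of 23.0% and 25.2%, and at no end of 9.94% and 8.01%. Links with a single anchor in the other list had a shared link at that anchor in 80.2% in SST and 79.6% in VIP. Members used 841 SST anchors, 39.1% of the 2153 that overlapped a VIP anchor, and 740 VIP anchors, 35.0% of 2112. Of these, 643 in SST and 560 in VIP carried shared links too, whereas 132 and 129 carried rewired links alone. Most member anchors, 66.6% in SST and 67.0% in VIP, had 1 rewired link, and 25 SST and 21 VIP anchors had 5 or more.

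Members were spread over all 19 autosomes, and chromosome X held none among 7 SST and 11 VIP interactions. Chromosome 9 had the highest rewired share in SST, with 62 of 147 links between common anchors or 42.2% (34.1 to 50.6%), and stood at 22.0% (14.9 to 30.6%) in VIP. Chromosome 15 had 37.3% (28.2 to 47.0%) in SST and 23.6% (15.2 to 33.8%) in VIP. Chromosomes 6 and 17 were high in both lists, at 32.9% (25.4 to 41.0%) and 30.6% (23.9 to 38.1%) in SST and 33.1% and 32.9% in VIP. Their SST intervals took in the share over all chromosomes, 27.5% in SST, which was 25.2% in VIP. Chromosome 10 had 33.8% in SST and 21.7% in VIP. Chromosome 18 had 27.8% in SST and the highest VIP share, 33.3%. Several of these shares rested largely on single groups of members that met at overlapping anchors. One group held 35 of the 52 VIP and 14 of the 49 SST members on chromosome 6. Single groups also held 27 of the 41 SST members on chromosome 15 and 24 of the 62 on chromosome 9. On chromosome 17 the largest group held 23 of 56 VIP and 9 of 53 SST members. Chromosome 16 had the lowest SST share, 3 of 28 links or 10.7% (2.27 to 28.2%), while 10 of 33 VIP links there were rewired. With windows of 1 Mb, members fell into 333 windows, of which 128 held members of both lists and 126 a single member. The 10 windows with the most members held 16.4% of them, led by chromosome 6 from 91 to 92 Mb with 29 VIP and 6 SST members and chromosome 17 from 25 to 26 Mb with 21 VIP and 9 SST members.

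When members that met at the same or overlapping anchors were joined, they formed 332 groups. Of these, 155 were single links and 30 held 10 or more members, 42.1% of all members together. Members of both lists occurred in 115 groups, which held 69.6% of the members, and in 29 of the 30 large ones. A group with more members has more anchors at which members of the other list can join it.

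The largest group lay on chromosome 6, 90631017 to 91799591, with 35 VIP and 14 SST members. The same stretch held 29 shared SST and 27 shared VIP links. VIP members converged on the neighbouring anchors 91270341 to 91315822 with 11 rewired of 14 links, 91160339 to 91200692 with 9 of 18, and 91201213 to 91240557 with 7 of 16. In SST the anchors overlapping the first of these had 2 links in all, and were 21.6 kb wide in sum against 45.5 kb. The ends of these members were mostly joined in SST over the anchor 90859012 to 90928309, which was an intermediate anchor for 10 of those 11, 7 of the 9 and 6 of the 7 VIP members. A link between a pair of these anchors counts for both. That anchor, 69.3 kb wide, had 19 links in SST, 8 of them rewired, and its counterpart, 32.7 kb wide, had 8 links in VIP. VIP members of this group were longer than SST members, with medians of 416 kb against 246 kb. All 35 VIP and 14 SST members had their ends joined in the other list or overlapping one of its anchors.

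A similar arrangement was seen on chromosome 9, 28208067 to 29773911, where the group held 24 SST members and no VIP member. The anchor 28686966 to 28749132 had 44 links in SST, the highest number of any SST anchor, and 14 of them were rewired. Its VIP counterpart, 28696526 to 28701723, lay inside this 62.2 kb anchor and had a single link. That link led to the VIP anchor 29002933 to 29053352, which had 12 VIP links and overlapped no SST anchor, and over it 12 of the 14 SST members were joined by 2 links in VIP. The remaining 30 links of the SST hub had only 1 end in VIP. The anchor 29448052 to 29478717 had 6 rewired of 16 SST links and a single VIP link, and 4 of its 6 members had no path in VIP. Its VIP counterpart was 7.60 kb wide, against 30.7 kb. All 14 members at the SST hub are members through the overlap of the one VIP anchor 28696526 to 28701723 with it.

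On chromosome 17, 24662927 to 26022006, 23 VIP and 9 SST members formed a group among 24 shared links of each list. The VIP anchor 25690275 to 25718431 had 12 rewired of 23 links, 6 to each side, at distances of 140 to 666 kb. The 2 SST anchors overlapping it were about as wide, 26.2 kb in sum against 28.2 kb, and had 4 links in all. In SST, 11 of these 12 members were joined over the anchor 25936678 to 25955064, which had 17 links in each list. This intermediate hub thus had the same number of links in both lists, while the anchor at 25690275 had 23 in VIP and 4 in SST. A group further along the chromosome, 26637805 to 27943266, was nearly even, with 12 SST and 11 VIP members, and the SST members were the longer ones with medians of 248 kb against 128 kb.

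**Figure D5:**
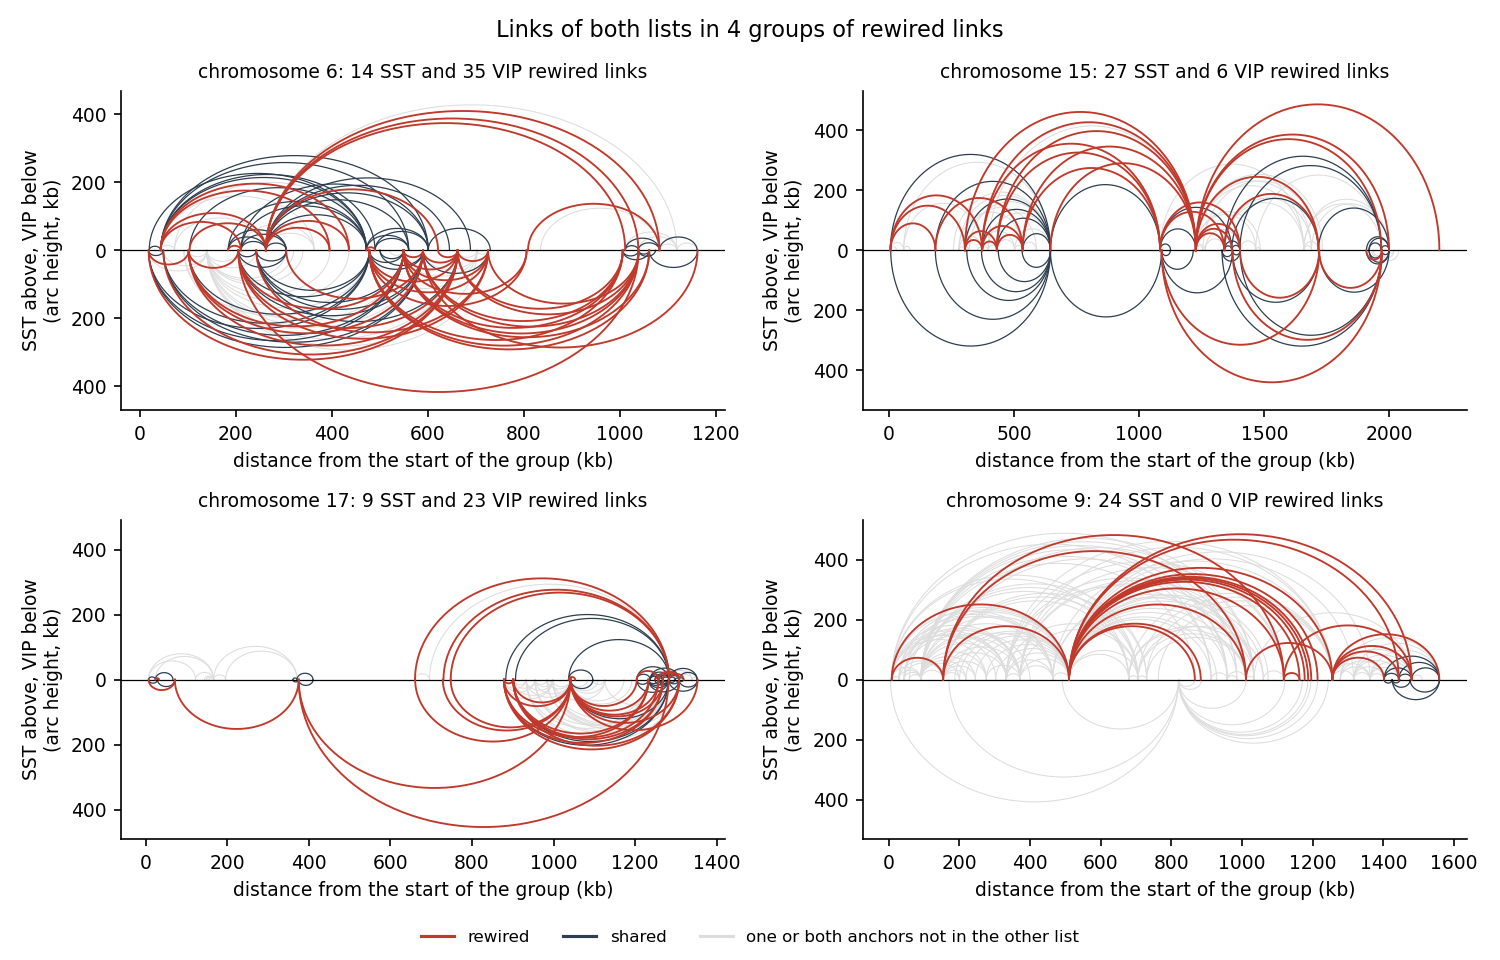
Links of the groups on chromosomes 6, 15, 17 (24662927 to 26022006) and 9, drawn as arcs between anchor midpoints, SST above and VIP below the line, where the horizontal axis is the distance from the group's start in kb and arc height (vertical axis, kb) grows with the link's distance. Rewired links fan out from single anchors, as the 14 from one SST anchor on chromosome 9 and the 12 from one VIP anchor on chromosome 17, and 1 SST rewired link of another group lies in the chromosome 17 stretch.

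On chromosome 15, 76546768 to 78752955, 27 SST members stood against 6 VIP members, while 21 links of each list were shared. The SST anchor 77757117 to 77789401 had 12 rewired of 21 links, with 5 partners at lower and 7 at higher positions up to 973 kb away. Its VIP counterpart shared the same start, ended at 77768399 and had 1 link. Of the 12 members, 4 were joined by 2 links in VIP and 1 had no path, so the others needed 3 or 4 links. On chromosome 11, 117730120 to 120216819, 17 VIP and 9 SST members formed a group in which the VIP anchor 119839912 to 119896234 had 9 rewired of 14 links. The overlapping SST anchor, 7.23 kb wide against 56.3 kb, had 1 link, and for none of the 9 members was there a path in SST. These 9 are part of 12 unjoined VIP members in the group, whereas the chromosome 6 group had none.

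Most of the other named anchors also had many links in one list and few in the other. In VIP, the anchors on chromosome 12 at 90506460 to 90543084 and on chromosome 14 at 29820996 to 29848853 had 7 rewired links each among 12 and 14, and each had 1 link in SST. Their SST counterparts were 10.7 and 7.67 kb wide, against 36.6 and 27.9 kb. Of the 7 members on chromosome 12, 6 were joined in SST over the anchor 89655545 to 89684523, which had 16 SST and 3 VIP links. All 7 members on chromosome 14 pointed to higher positions and were joined in SST over the anchor 30493874 to 30538381, which had 19 links in SST and 11 in VIP. In SST, the chromosome 10 anchor 90036171 to 90068367 had 7 rewired of 10 links, all to higher positions, and a counterpart with 2 VIP links, and 5 of the 7 had no path in VIP. Nearby, 90177783 to 90198226 had 6 rewired of 10 SST links and 1 VIP link. The VIP counterparts of this pair of SST anchors were 12.8 and 12.5 kb wide, against 32.2 and 20.4 kb. The SST anchors on chromosome 6 at 135891672 to 135936668 and 135955254 to 136035082 differed from these. Each had 6 rewired of 14 links, and the 2 and 5 VIP anchors overlapping them had 8 and 11 links in sum. These VIP anchors were 39.2 and 45.6 kb wide in sum, against 45.0 and 79.8 kb. All their members were joined in VIP over the anchor 136090702 to 136127098, with 19 VIP and 16 SST links.

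Rewired links of the 2 lists met at some of the same anchors. There were 362 pairs of overlapping anchors with a member in each list, covering 319 SST anchors (37.9% of the SST member anchors) and 296 VIP anchors (40.0% of the VIP member anchors). Among all anchors that overlapped the other list, 35.0% in VIP and 39.1% in SST carried members. Member anchors thus met a member of the other list about as often as these shares give. In 160 of these pairs each list had 1 rewired link. The rewired links of the 2 lists ran to the same side of the anchor in 141 pairs, to opposite sides in 128 and to both sides from at least 1 of the anchors in 93. The pair with the highest smaller number of members lay on chromosome 5, SST 126159561 to 126196648 and VIP 126100204 to 126189813. Each anchor had 15 links, of which 4 were rewired in SST and 3 in VIP, all to lower positions. The SST ones spanned 23.0 to 73.1 kb and the VIP ones 258 to 604 kb, so the distances did not overlap. All 4 SST members overlapped this VIP anchor with both ends. On chromosome 17, the SST anchor 27067928 to 27112558 had 6 rewired links of 372 to 842 kb, and the VIP anchor 27066108 to 27093581 had 2 of 26.3 and 184 kb. Here the SST links were the longer ones, but the VIP link of 26.3 kb met this SST anchor with both ends. On chromosome 6, the SST anchor 90827264 to 90856400 had 2 rewired of 7 links, of 26.6 and 167 kb, and the VIP anchor 90817952 to 90854309 had 5 of 10, of 103 to 834 kb. The SST link of 26.6 kb likewise met this VIP anchor with both ends. Also on chromosome 6, the SST anchor 135891672 to 135936668 with its 6 rewired links met 2 VIP anchors, 135896450 to 135917041 and 135918064 to 135936668, each with 2 rewired of 4 links. One of these, of 20.6 kb, joined the 2 VIP anchors to each other and counts for both. Both of its ends lay inside the SST anchor.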

How the data were processed

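H3K27ac HiChIP was done on INTACT-captured nuclei of SST and VIP interneurons, with MboI digestion and Tn5 library preparation, per the labels' protocols. The deposited lists hold 6 columns, the chromosome, start and end of the paired anchors, and no other value, so links carry neither a strength nor a significance. Per the submitters' processing notes, HiC-Pro and the build mm9 were used. How interactions were called, at which threshold and on which anchors, and whether replicates were pooled, was not given in the sources used here. Starts may count from 0 or 1, so overlap was taken as end minus start and touching anchors as not overlapping. Distances run between anchor midpoints, paths are the fewest links between the overlapping anchors of the other list, and a hub has 10 or more links. Counts of links at an end are summed over all overlapping anchors of the other list.

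Named regions were set by rule: per list the 5 anchors with the most members (ties included in order of position, up to 8 anchors, which left out some of the 8 SST anchors tied at 6 members), the 3 longest and 3 shortest members (of which 1 each is printed), the 6 largest groups and the 5 pairs of overlapping anchors with members in both lists that had most. Members, lists and comparisons were chosen with earlier results of these data known. Membership and path steps were tested on simulated lists and recovered every planted link. Alternatives were a 50% overlap, a 10 kb tolerance, merging of anchors within 5 kb, links of up to 200 kb, autosomes only, lists without the members with both ends in 1 anchor, without the 10 richest windows, and without each chromosome. Touching anchors counted as overlapping, and settings restricted to separate anchors, were chosen after seeing the data. No statistical test was run, as each cell type has 1 list. The comparisons with gene lists that had been planned were not run, because no annotation of mm9 was used, and for the same reason no sequence is printed. The scripts ran under Python 3.11.15 with scipy 1.17.1 for the intervals, pandas 2.3.3 and numpy 2.4.6 for the tables, and matplotlib 3.10.9.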

Additional observations from a re-analysis of the deposited data

How the results depend on the processing

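The excess of the rewired over the shared median distance depended most on the processing. From 19.4 kb (SST) and 66.1 kb (VIP), it became -9.35 kb in SST and 1.15 kb in VIP for links of up to 200 kb, and became 2.50 kb in SST and -4.25 kb in VIP when anchors within 5 kb were merged. Without the 10 windows richest in members it was 4.23 kb and 47.5 kb, and both ranges took in 0. Without members meeting one anchor of the other list with both ends it was 97.0 kb (SST) and 134 kb (VIP), and without such shared links too it was 88.3 kb and 128 kb. In that last comparison, chosen after seeing the data, the value stayed above 0 in the 4 further settings run, but in VIP after merging its range took in 0. It was 95.2 kb (SST) and 44.5 kb (-17.7 to 106 kb, VIP) after merging, 79.4 kb and 104 kb without the 10 windows, 84.9 kb and 55.4 kb with anchors within 10 kb taken as the same, and 19.9 kb and 18.7 kb for links of up to 200 kb. For links of up to 200 kb there were 384 SST and 303 VIP members, with median distances of 44.1 kb and 54.0 kb, and the rewired share in VIP was 22.6%. Under that limit 77.6% of SST and 74.3% of VIP members touched an anchor of a shared link, 24.0% and 27.7% touched a hub, and 29.4% and 24.4% had both ends in one anchor. Merging gave 444 SST members with a median of 196 kb, of which 26.6% touched a hub. In VIP, merging gave 64.1% joined by 2 links, 88.7% on an anchor of a shared link, 24.9% on a hub and 15.8% with both ends in one anchor. With anchors within 10 kb taken as the same, the rewired share was 22.6% in SST and 21.4% in VIP, 52.5% and 58.4% were joined by 2 links, 29.1% and 23.1% had both ends in one anchor, and 41.3% of SST members touched a hub. Leaving out members with both ends in one anchor gave rewired shares of 24.0% and 22.8%, medians of 216 kb and 252 kb, 80.7% and 79.9% joined by 2 links, and 42.1% of SST members on a hub. Without the 10 windows the rewired share in SST was 25.3%, and 26.4% of SST and 29.1% of VIP members touched a hub. The cause of these shifts was not tested, except that a distance limit or fewer members change the lists by construction. Autosomes only, each chromosome left out in turn and an overlap of 50% of the shorter anchor moved no result they were run for beyond its interval. These results were the member count, the rewired share, the median distance and its excess over shared links for all members. The shares joined by 2 links, on an anchor of a shared link, on a hub and with both ends in one anchor were also run. The excess for separate anchors and the remaining results were not rerun under these settings. For the member counts the limit was 1.5 times. A short anchor inside a long one passes the setting of 50% of the shorter anchor. The smaller overlap was under 50% of the own anchor in 46.9% of SST and 63.4% of VIP members with separate anchors. A demand for 50% of the own anchor was not run. Touching anchors were run for the member counts and rewired shares alone, giving 671 SST and 586 VIP members and shares of 27.4% and 25.2%. No paired analysis was possible because SST and VIP have a single list each, without replicate values, and for the same reason no replicate could be left out. Read depth is unknown, so list length and depth cannot be told apart.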
